A study of Mus musculus with 2 samples.

Results

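A set of 10 genes of serotonin handling (10 of the 31053 genes in the count matrices) were followed through the islet cells of virgin and multiparous mice. They were chosen by symbol, from the genes whose products make serotonin (*Tph1*, *Tph2*, *Ddc*), load it into vesicles (*Slc18a1*, *Slc18a2*), break it down (*Maoa*, *Maob*) or sense it in pregnancy and in the adult islet (*Htr1d*, *Htr2b*, *Htr3a*). All 10 have a row in both matrices, and 9 had at least 1 UMI (unique molecular identifier, the tag that marks each captured RNA molecule). The islets came from wild-type C57BL/6J females that entered the study at 9 weeks of age. Multiparous mice (multipara) went through 3 pregnancies in a row and were studied 3 weeks after the last delivery, with the pups removed to limit lactation, and littermates that were never mated served as virgin controls. Islets were dissociated with trypsin and sequenced as single cells with a 3′ chemistry, in 1 library per group. The study gives only a minimum number of mice per group, the labels do not say how many each library pools, and pooled animals cannot be separated, so no difference below has a replicate check and no test between groups was run. Differences are between these libraries, with exact intervals that cover counting error only.

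Depth was 94853806 UMIs over 5463 barcodes for virgin and 82503776 UMIs over 5075 barcodes for multipara, with 7 barcodes in both. After the cell filter and removal of doublet calls, 4330 and 3330 cells remained. Cells were gated on the hormone that made up at least 5% of their UMIs with the other hormones under 1/5 of it, which gave 1850 virgin and 1698 multipara β cells, 1043 and 646 α cells, 195 and 177 δ cells and 86 and 89 PP cells. Hormone-low cells were gated on marker genes, and 8 classes had at least 30 cells in each library. Genes that took no part in the gates fit the names. *Mafa* was at 323 and 336 counts per 1000000 UMIs of the class (CPM) in virgin and multipara β cells against 4.78 and 8.12 CPM in α cells, *Irx2* was at 103 and 93.3 CPM in α cells against 1.85 and 1.06 CPM in β cells, and *Hhex* was at 357 and 384 CPM in δ cells. The 3 PP markers gave a mixed picture. *Pyy* was highest in PP cells, at 121473 and 121092 CPM against 44816 and 37082.5 CPM in δ cells. *Etv1* was at 186 and 184 CPM in PP cells but at 227 and 259 CPM in α cells. *Fxyd2* was near 0 in PP cells (2.02 and 0.467 CPM) and also low in δ cells (3.78 and 1.62 CPM). Insulin transcripts in cells of other classes, a measure of free β cell RNA in the droplets, were higher in the multipara library. In α cells they were 0.899% of the β cell level in virgin and 1.5% in multipara, and in endothelial cells 1.65% and 2.76%. Glucagon transcripts went the other way in all other gated classes but fibroblasts. In δ cells they were 0.385% of the α cell level in virgin and 0.236% in multipara, and in endothelial cells 0.458% and 0.288%. The low *Ddc* levels of δ and endothelial cells were therefore set beside the level that free RNA alone would give. That level was computed from the insulin share of each class and the corresponding glucagon share. It was not computed for α cells.

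Serotonin is made from tryptophan. Tryptophan hydroxylase (*Tph1* in peripheral tissues, *Tph2* in neurons) is the rate-limiting step, and aromatic amino acid decarboxylase (*Ddc*) completes the synthesis. Vesicular monoamine transporters (*Slc18a1*, VMAT1, and *Slc18a2*, VMAT2) load the amine into secretory granules, and the mitochondrial monoamine oxidases (*Maoa*, *Maob*) degrade it. In mouse islets *Tph1* and *Tph2* are known to be induced in β cells during pregnancy by lactogens acting through the prolactin receptor and STAT5, and the serotonin released is known to act through the Gq-coupled receptor HTR2B, the Gi-coupled receptor HTR1D and the ion channel HTR3A.

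On GRCm38 (GENCODE M21) the minus-strand members are *Tph1* at chr7:46644641-46672537, *Tph2* at chr10:115078641-115185022, *Ddc* at chr11:11814101-11898144, *Slc18a1* at chr8:69037711-69089235, *Maob* at chrX:16709282-16817366, *Htr2b* at chr1:86099026-86111970 and *Htr3a* at chr9:48899213-48911099, and the plus-strand members *Slc18a2* at chr19:59260896-59296012, *Maoa* at chrX:16619698-16687818 and *Htr1d* at chr4:136423524-136444398. No other counted gene overlaps any of them on the same strand. *Tph1* is listed as ENSMUSG00000040046 and *Tph2* as ENSMUSG00000006764. The bases upstream of the hydroxylase genes are shown because these were the members that differed most between the libraries. RefSeq (GRCm38.p6) lists 2 starts for *Tph1* and 1 for *Tph2*, and the 250 bases before each are printed 5′ to 3′ on the gene's own minus strand, with motif matches in capitals. They lie at chr7:46672538-46672787 and chr7:46667378-46667627 for *Tph1* and at chr10:115185023-115185272 for *Tph2*.
Tph1 upstream start: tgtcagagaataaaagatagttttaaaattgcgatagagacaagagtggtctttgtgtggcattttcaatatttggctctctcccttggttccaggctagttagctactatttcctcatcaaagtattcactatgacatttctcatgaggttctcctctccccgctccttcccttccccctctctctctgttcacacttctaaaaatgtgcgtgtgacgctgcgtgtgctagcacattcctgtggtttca
Tph1 downstream start: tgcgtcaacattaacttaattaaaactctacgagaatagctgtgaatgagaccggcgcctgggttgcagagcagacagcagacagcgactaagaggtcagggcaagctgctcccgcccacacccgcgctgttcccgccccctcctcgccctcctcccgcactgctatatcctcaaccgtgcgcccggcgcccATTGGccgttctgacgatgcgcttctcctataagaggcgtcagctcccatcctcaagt
Tph2 start: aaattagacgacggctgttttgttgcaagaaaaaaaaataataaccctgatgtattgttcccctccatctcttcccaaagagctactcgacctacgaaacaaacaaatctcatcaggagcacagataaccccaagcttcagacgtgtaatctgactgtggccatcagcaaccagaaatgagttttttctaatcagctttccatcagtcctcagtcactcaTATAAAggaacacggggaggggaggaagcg

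The capitals mark ATTGG, the other strand of CCAAT, at position -58 from the downstream *Tph1* start and TATAAA at position -30 from the *Tph2* start. Both strands were searched and no matches in these windows overlapped. TATAAA is in 12.4% and CCAAT in 33.8% of all 32851 windows of the same length. The STAT-type motif TTCNNNGAA (7.02% of windows) and the CRE motif TGACGTCA (1.55%) were in none of the 10 windows found for 7 of the 10 members. *Slc18a1*, *Maob* and *Htr3a* had no window in the table. A 3′ library does not tell the 2 *Tph1* starts apart.

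*Tph1* RNA was found in multipara β cells and was close to absent from virgin β cells. The virgin library had 2 *Tph1* UMIs in 2 of 1850 β cells and the multipara library 35 UMIs in 33 of 1698 β cells, with at most 2 UMIs in a cell. In CPM this was 0.0381 (95% interval 0.00461 to 0.138) in virgin against 0.744 (0.518 to 1.03) in multipara, a log2 ratio of 4.29 (2.33 to 7.39), or 19.5-fold. The intervals do not overlap, and the ratio had rank 23 of the 13388 genes with at least 20 UMIs in β cells. The wide interval comes from the 2 virgin UMIs. No *Tph1* UMI was found in the 1043 virgin and 646 multipara α cells, where the intervals end at 0.220 and 0.329 CPM, nor in δ, PP, endothelial, pericyte, fibroblast, macrophage, T or B cells of either library. Outside α cells these classes were too shallow to detect a level like that of multipara β cells, as the intervals end at 1.99 CPM in multipara δ cells and 2.43 CPM in multipara endothelial cells. The 3 other *Tph1* UMIs lay in cells with mixed hormones (1, multipara) and in ungated cells (1 in each library).

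*Tph2*, the hydroxylase of neurons, was also higher in multipara β cells, from a level already measurable in virgin. There were 40 UMIs in 39 virgin β cells and 73 UMIs in 69 multipara β cells, giving 0.762 CPM (0.544 to 1.04) and 1.55 CPM (1.22 to 1.95) and a log2 ratio of 1.03 (0.45 to 1.62). These intervals are also apart. In α cells there were 1 and 2 *Tph2* UMIs (0.0597 and 0.178 CPM), below the β cell intervals. In δ cells there were 1 and 2 UMIs (0.473 and 1.08 CPM), with intervals of 0.0120 to 2.63 and 0.131 to 3.90 CPM that cover the β cell levels, and PP cells had none. Of all *Tph1* and *Tph2* UMIs in kept cells, 92.5% and 91.1% were in β cells. β cells were 42.7% of kept virgin cells and 51.0% of kept multipara cells. Their median depth was 29811 and 31239.5 UMIs, against 17178.5 and 18292.5 over all kept cells. They therefore held a larger share of all UMIs than of cells.

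The hydroxylase counts are low, and many genes with counts as low differed between the libraries. Of all genes with at least 20 UMIs in β cells, 12.5% were past 1.5-fold in either direction, but among those with 20 to 200 UMIs, the range both hydroxylases fall in, 39.4% were past it and 18.6% were past it with multipara higher. For *Tph2* (rank 469 of 13388) the lower end of the interval is inside 1.5-fold. Of the 6 members with enough UMIs in β cells, *Tph1* and *Tph2* were past 1.5-fold and *Ddc*, *Slc18a1*, *Maoa* and *Maob* were not.

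**Figure D1:**
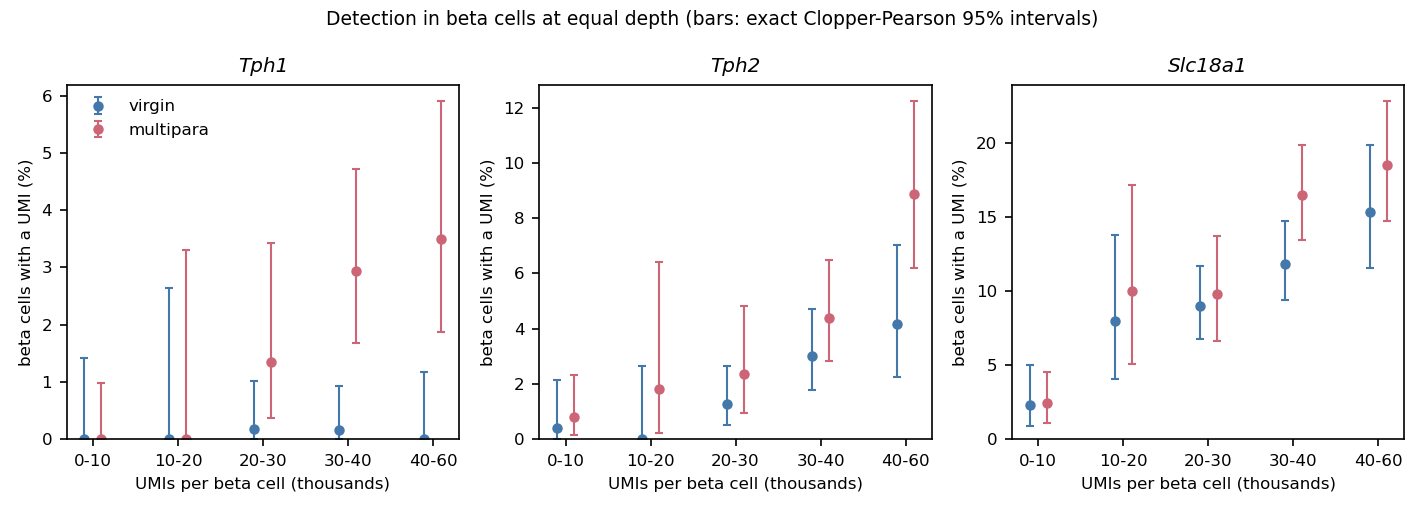
Share of β cells with at least 1 UMI of *Tph1*, *Tph2* or *Slc18a1* (%) in virgin (blue) and multipara (red) against the UMIs of the cell, with exact Clopper-Pearson 95% intervals. Detection is highest in the deepest bin for each gene except *Tph1* in virgin, which stays at or below 0.184% in every bin while multipara reaches 3.49%.

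Detection of so rare an RNA depends on the depth of the cell. Among β cells with 30000 to 40000 UMIs, *Tph1* was seen in 1 of 599 virgin cells (0.167%, 0.00423 to 0.927) and 16 of 546 multipara cells (2.93%, 1.68 to 4.72). From 40000 to 60000 UMIs it was seen in 0 of 312 virgin cells (interval up to 1.18%) and 13 of 372 multipara cells (3.49%, 1.87 to 5.90). Multipara was higher in both bins and the intervals did not overlap. From 20000 to 30000 UMIs there were 1 of 544 virgin cells (0.00465 to 1.02%) and 4 of 296 multipara cells (0.369 to 3.42%), with intervals that overlap, and below 20000 UMIs no β cell of either library had *Tph1*. *Tph2* in the deepest bin was in 4.17% of virgin and 8.87% of multipara cells, with intervals of 2.24 to 7.02% and 6.19 to 12.2% that overlap. With every β cell thinned to 5000 UMIs, *Tph1* was left in 0 of 1668 virgin cells (interval up to 0.221%) and 5 of 1397 multipara cells (0.358%, 0.116 to 0.833), and *Tph2* in 0.420% and 0.644%. At that depth neither difference could be detected.

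*Ddc* was abundant in β, α and PP cells, and differed little between the libraries. β cells held 8819 UMIs (168 CPM, 164 to 172) in virgin against 8348 (177 CPM, 174 to 181) in multipara, a log2 ratio of 0.08 (0.04 to 0.12). α cells had 165 CPM (159 to 171) in virgin against 140 CPM (133 to 147) in multipara, a log2 ratio of -0.24 (-0.33 to -0.15). Virgin β and α cells thus did not differ beyond counting error, while multipara β cells were above multipara α cells. None of these ratios reached 1.5-fold, and the median of all genes was -0.08 in β and -0.10 in α cells. The near equality of the classes rests on counting hormone RNA in the total. Without hormone transcripts in the total, *Ddc* was at 437 and 474 CPM in β cells, 275 and 245 CPM in α cells and 179 and 168 CPM in PP cells.

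PP cells came next with 78.8 CPM (66.9 to 92.2) in virgin against 70.1 CPM (59.3 to 82.2) in multipara, and these did not differ beyond counting error (log2 ratio -0.17, -0.50 to 0.16). δ cells were far lower, at 7.57 CPM (4.32 to 12.3) and 7.55 CPM (4.13 to 12.7), where free RNA alone would give 2.62 and 4.50 CPM. The multipara δ interval reaches the free RNA level and the virgin interval does not. Endothelial cells had 7.18 and 4.61 CPM against 3.53 and 5.30 CPM expected from free RNA, which lies within both intervals. Thinned to 5000 UMIs, 53.7% of virgin and 56.5% of multipara β cells had *Ddc*, as had 48.7% and 42.6% of α cells, 25.9% and 26.1% of PP cells and 2.66% and 3.57% of δ cells. δ cells thus had the lowest *Ddc* of the endocrine classes. With classes taken from clusters instead of gates, the δ class had 13.6 CPM in virgin and 19.5 CPM in multipara. That class held 658 cells over both libraries, of which only 357 were δ cells by the gate.

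**Figure D2:**
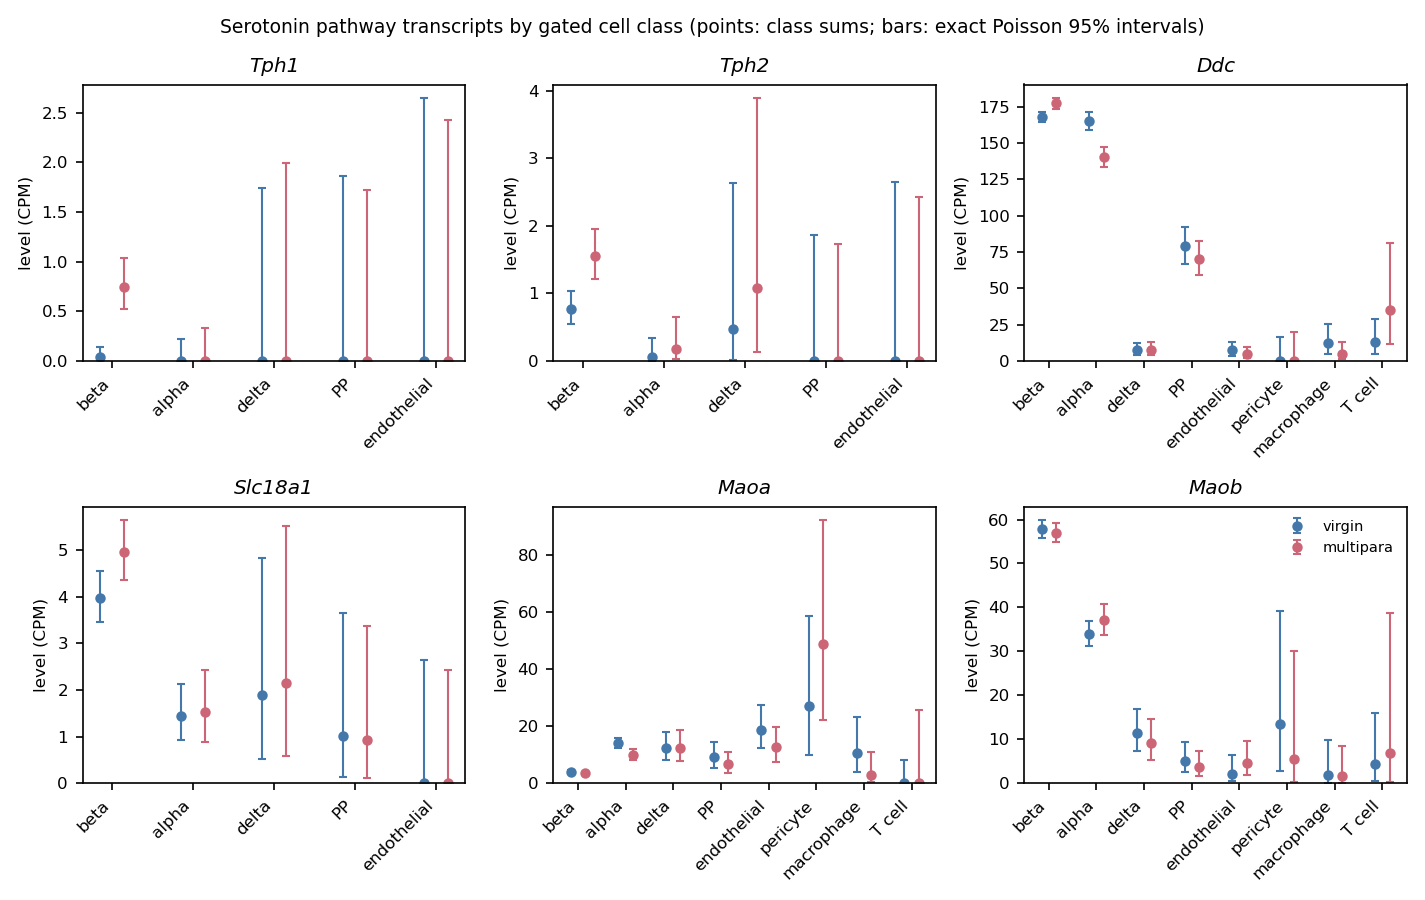
Levels of 6 members (CPM) by gated class in virgin (blue) and multipara (red), as class sums with exact Poisson 95% intervals; *Tph1*, *Tph2* and *Slc18a1* are drawn for the 5 classes with the most UMIs. *Ddc* is high in β and α cells, *Maob* is highest in β cells, and *Maoa* is lower in β than in α cells.

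Of the vesicular transporters, islet cells held RNA of *Slc18a1* and almost none of *Slc18a2*. *Slc18a1* was at 3.98 CPM (3.46 to 4.56, 209 UMIs) in virgin against 4.97 CPM (4.36 to 5.65, 234 UMIs) in multipara β cells, a log2 ratio of 0.32 (0.05 to 0.60). This is inside 1.5-fold, and the intervals of the levels overlap. Weighting each β cell equally gave 0.86, past 1.5-fold. α cells had 1.43 CPM (0.919 to 2.13) and 1.52 CPM (0.884 to 2.43), below β cells in both libraries, with a log2 ratio of 0.08 (-0.91 to 1.04). δ cells had 4 UMIs in each library (1.89 and 2.16 CPM) and PP cells 2 (1.01 and 0.934 CPM), with wide intervals that overlap those of both α and β cells or, in multipara PP cells, those of α cells. *Slc18a1* was counted in 10.0% of virgin and 12.2% of multipara β cells before thinning, against none of 251 virgin and 200 multipara endothelial cells, whose median depth was 4460 and 5666 UMIs against 29811 and 31239.5 in β cells. *Slc18a2*, the transporter of neurons and blood cells, had 9 UMIs in virgin and 4 in multipara over all kept cells. They were spread over β cells (2 and 2), α cells (3 and 1), virgin endothelial cells (2), Schwann cells (1 and 1) and virgin mixed cells (1).

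The monoamine oxidases differed in the place of β cells, which came first for *Maob* and below α cells for *Maoa*. *Maob* was highest in β cells, with 57.8 CPM (55.8 to 59.9) in virgin against 57.0 CPM (54.9 to 59.2) in multipara, followed by α cells with 34.0 CPM (31.3 to 36.9) and 37.1 CPM (33.6 to 40.9). δ cells were at 11.3 and 9.17 CPM and PP cells at 5.05 and 3.74 CPM, and the intervals of δ and PP cells overlap. Between the libraries, *Maob* differed by a log2 ratio of -0.02 (-0.10 to 0.06) in β cells and 0.13 (-0.06 to 0.31) in α cells, so no difference was detected in either. Virgin fibroblasts had 12 UMIs (26.9 CPM, 13.9 to 47.0) in 7 of 59 cells, and only 5 multipara cells were gated as fibroblasts.

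*Maoa*, whose product prefers serotonin as substrate, was lower in β cells than in α cells. β cells had 3.98 CPM (3.46 to 4.56) in virgin against 3.44 CPM (2.93 to 4.01) in multipara. α cells were higher at 14.0 CPM (12.3 to 16.0) and 9.99 CPM (8.23 to 12.0), and δ cells had 12.3 and 12.4 CPM. PP cells had 9.09 and 6.54 CPM, and the intervals of α, δ and PP cells overlap in both libraries. The multipara PP interval (from 3.58 CPM, 14 UMIs) also overlaps that of β cells. Multipara δ cells were at 3.44 CPM when other hormones were held under 1/20. Under that gate few UMIs remained, as only 1 member had at least 20 UMIs in δ cells, against 3 under the main gate. Endothelial cells had 18.7 CPM (12.2 to 27.4) and 12.5 CPM (7.53 to 19.5), pericytes 26.9 CPM from 6 UMIs and 48.6 CPM from 9 UMIs, and T cells none. Only 38.6% of *Maoa* UMIs in kept cells were in β cells, compared with 82.0% for *Maob*. Both shares are to be read against the large part of all UMIs that β cells held. Between the libraries the log2 ratio was -0.21 (-0.51 to 0.09) in β cells and -0.49 (-0.83 to -0.16) in α cells. The α cell interval lies below 0 without reaching 1.5-fold at its centre, and weighting each α cell equally gave -0.68 and thinning -0.71, both past 1.5-fold.

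No member was past 1.5-fold in α cells (4 with at least 20 UMIs, 9.37% of all genes past it), δ cells (3 members, 13.2%), PP cells (2 members, 16.0%) or endothelial cells (1 member, 13.6%). *Maoa* in endothelial cells came nearest, at a log2 ratio of -0.58 (-1.51 to 0.33) against a limit of 0.58, with 26 and 19 UMIs.

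**Figure D3:**
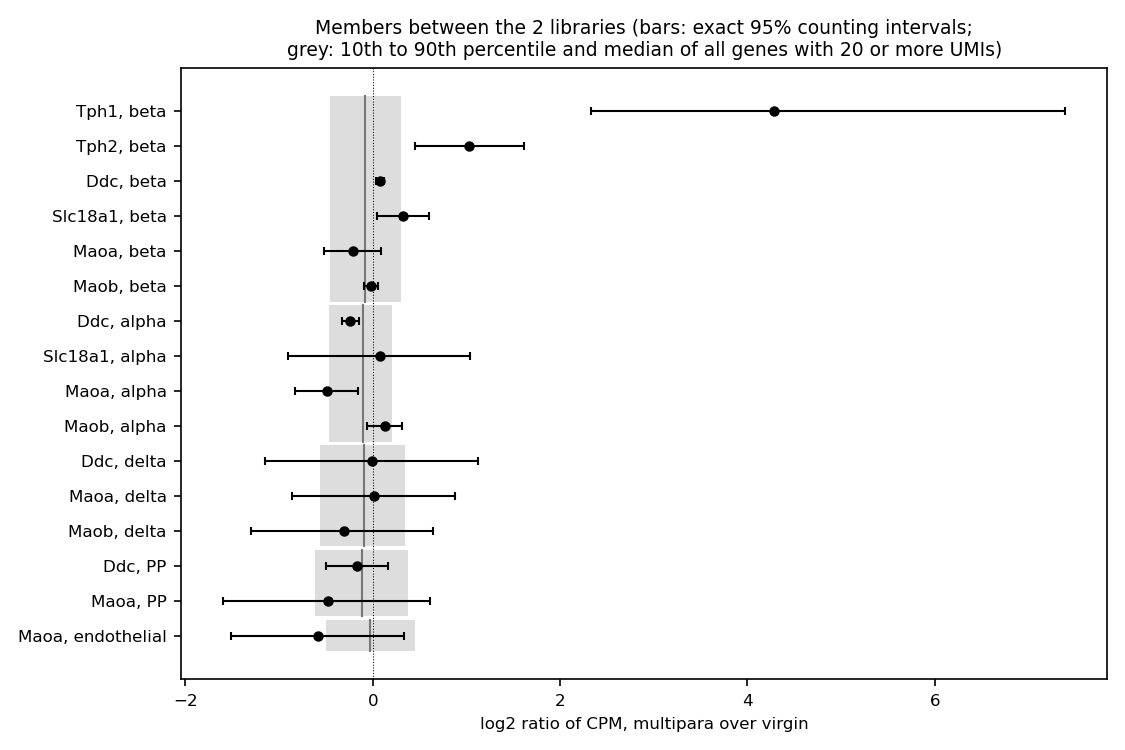
Log2 ratio of CPM (multipara over virgin) for each member with at least 20 UMIs in a class, with exact 95% counting intervals. Grey bands and lines give the 10th to 90th percentile and the median of all genes with 20 or more UMIs in that class. *Tph1* (4.29), *Tph2* (1.03) and, narrowly, *Slc18a1* (0.32) in β cells lie beyond the band on the right. *Maoa* lies beyond it on the left in α cells (-0.49) and endothelial cells (-0.58), and the other points lie within it.

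The serotonin receptors of the set were hardly detected. *Htr1d* had 3 UMIs in virgin (0.0571 CPM) and 4 in multipara β cells (0.0850 CPM), and its only other UMIs were in virgin fibroblasts (6 UMIs in 2 cells) and 1 virgin pericyte. *Htr2b* had 2 UMIs in virgin and 1 in multipara β cells, and none elsewhere. *Htr3a*, the channel subunit, had no UMI in any barcode of either library, and its intervals in β cells end at 0.0703 CPM in virgin and 0.0784 CPM in multipara. Levels this low give no comparison between the libraries. Of 11 further serotonin receptor genes, 7 had no UMI in β cells and none of the rest had more than 2 in a library. Pericytes differed, as 1 of these 11 genes had enough UMIs there to be compared and the other 10 had no UMI. Its log2 ratio in pericytes was -0.18, inside 1.5-fold. None of the 11 had enough UMIs to be compared in β, α, δ, PP, endothelial or T cells or in macrophages.

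Around these members, 44 genes of tryptophan supply, cofactor synthesis, related amines, uptake, further breakdown, transcriptional control and lactogen signalling were examined in β cells. Of these, 23 had at least 20 UMIs, 4 were past 1.5-fold with multipara higher, 2 with virgin higher, and 11 had no UMI. Their median log2 ratio was 0.01, against -0.08 for all genes. The 6 of 23 compare with the 12.5% of all genes given above. Of the 6, *Tdo2*, *Tgm2*, *Fev* and *Gata2* had 20 to 200 UMIs, a range where 39.4% of all genes were past 1.5-fold.

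The 5 genes that make and recycle tetrahydrobiopterin, the cofactor of the hydroxylases, were all expressed and none was past 1.5-fold. *Gch1*, the rate-limiting enzyme of its synthesis, was at 119 CPM in virgin and 123 CPM in multipara β cells, and the other 4 had log2 ratios from -0.18 (*Pts*) to 0.11 (*Qdpr*). The large neutral amino acid transporter subunits that carry tryptophan were likewise close, *Slc7a5* at 26.8 and 30.0 CPM and *Slc3a2* at 94.3 and 101 CPM. *Th*, tyrosine hydroxylase of the catecholamine pathway, was at 13.5 and 13.6 CPM. *Tdo2*, which diverts tryptophan into the kynurenine pathway, was counted 73 times in virgin and 109 times in multipara, with a log2 ratio of 0.74 (0.30 to 1.18). *Tgm2*, a transglutaminase that can couple serotonin to proteins, had 7 and 20 UMIs (1.67, 0.37 to 3.16).

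For uptake, the serotonin transporter *Slc6a4* had 1 UMI in virgin β cells and none in multipara. The low-affinity monoamine transporter *Slc29a4* was at 6.34 CPM in virgin and 4.12 CPM in multipara β cells, a log2 ratio of -0.62 (-0.88 to -0.36), just past 1.5-fold. It was within 1.5-fold under 7 of 11 alternatives, among them TMM scaling (-0.55), hormone-free totals (-0.58) and equal weighting of cells (-0.17). Of the transcription factors of serotonergic neurons, *Fev* had 34 UMIs in virgin and 14 in multipara (-1.12, -2.13 to -0.19), *Lmx1b* had 136 and 103, and *Gata2* had 2 and 20 (3.48, 1.44 to 6.62). For *Fev*, weighting each cell equally gave 0.21, with multipara higher, and β cells with the other hormones under 1/20 held 15 of its 48 UMIs (-0.46). *Fev* was far higher in α cells, at 28.6 and 27.7 CPM against 0.648 and 0.297 CPM in β cells. Its α cell log2 ratio was -0.05 (-0.26 to 0.16). Of the 22 *Gata2* UMIs, 8 were in cells with at least 5000 UMIs (log2 ratio 2.97) and 5 in cells with at least 10% insulin UMIs (2.16).

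The lactogen receptor *Prlr* was at 421 CPM in virgin and 549 CPM in multipara β cells, a log2 ratio of 0.38 (0.36 to 0.41), inside 1.5-fold. *Cish*, a feedback inhibitor and known target of STAT5, was at 10.1 and 16.1 CPM (0.68, 0.52 to 0.84), past 1.5-fold. *Socs2*, another such target, had a log2 ratio of 0.22 and the growth hormone receptor *Ghr* one of -0.29. In α cells, 20 of the 44 genes had at least 20 UMIs. Of these, 1 was past 1.5-fold with multipara higher and 1 with virgin higher, where 9.37% of all genes were past it. *Prlr* was higher in multipara (5.44 and 14.0 CPM, 91 and 157 UMIs, log2 ratio 1.37, 0.98 to 1.75). *Cish* was lower (7.35 and 4.28 CPM, 123 and 48 UMIs, -0.78, -1.29 to -0.29). The insulin RNA of α cells moved the same way as their *Prlr* (0.899% and 1.5% of the β cell level), and its part in that difference was not tested.

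**Figure D4:**
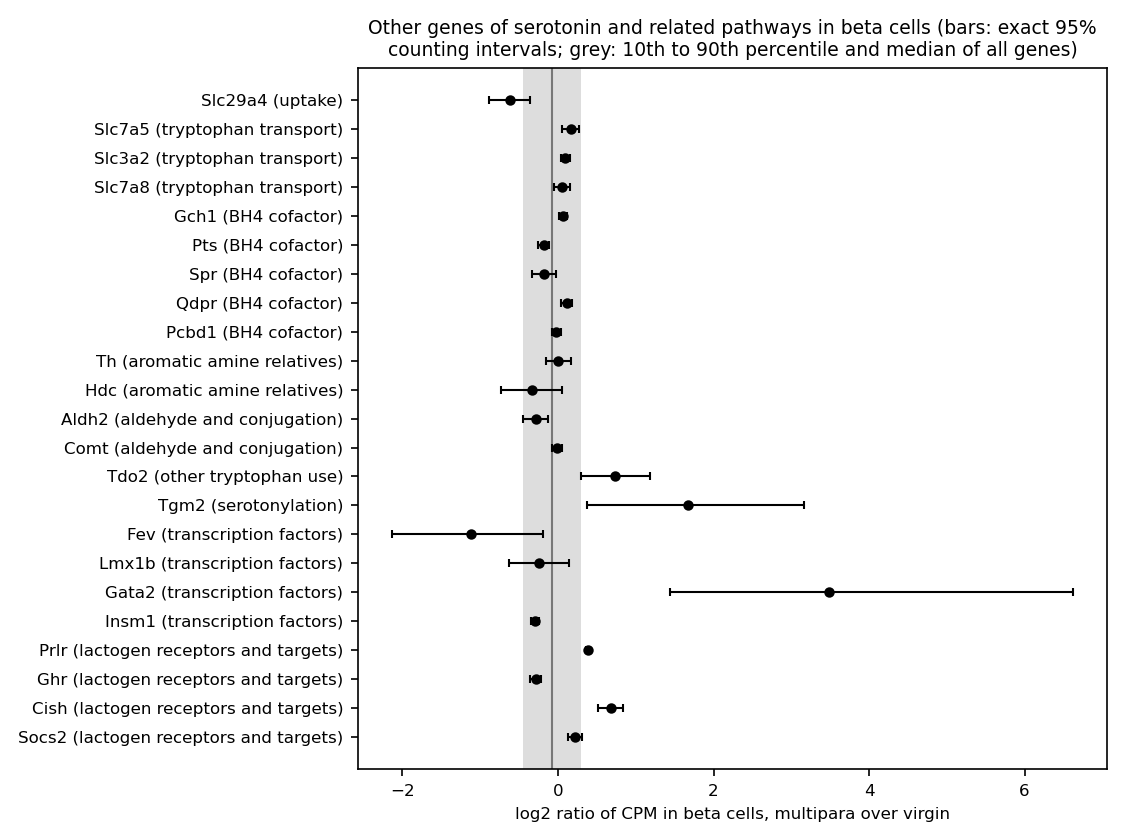
Log2 ratio of CPM in β cells (multipara over virgin) for the 23 of 44 further pathway genes with at least 20 UMIs, grouped by role, with exact 95% counting intervals and the 10th to 90th percentile (grey) and median (line) of all genes. The cofactor genes sit near 0, while *Gata2* (3.48), *Tgm2* (1.67) and *Fev* (-1.12) stand furthest out.

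Within multipara β cells, the 33 cells with *Tph1* were compared with 1151 cells without it that were at least as deep as the shallowest of them (median 37553 and 35798 UMIs). *Ddc* was seen in 97.0% of the former and 96.6% of the latter, *Slc18a1* in 18.2% (6.98 to 35.5) and 15.6% (13.6 to 17.9), and *Tph2* in 9.09% (1.92 to 24.3) and 5.21% (4.00 to 6.66). These intervals overlap in each case, and 3 cells carried both hydroxylases. Nearly every cell in which *Tph1* was caught therefore also held RNA for the next enzyme, as did nearly every cell in which it was not. Of the pregnancy-linked β cell genes, *Lrrc55* was in 15.2% (5.11 to 31.9) of cells with *Tph1* and 5.82% (4.54 to 7.33) of those without, *Matn2* in 60.6% and 58.5%, and *Rerg* in 9.09% and 6.95%. Their intervals overlap as well. Between the libraries *Lrrc55* had 0 and 105 UMIs in β cells (exact interval of the log2 ratio from 4.96 upwards), and *Rerg* had 5 and 97.

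The genes with the most similar pattern were taken from the log2 levels in 8 classes of both libraries (16 values that share libraries and depth), as a description. *Tph2* was most like *Iapp* (Pearson r 0.913), the amylin gene of β and δ cells, and *Ppp1r1a* (0.908). *Ddc* was most like *Ociad2* (0.898) and the granule zinc transporter gene *Slc30a8* (0.883), *Slc18a1* like *C2cd4b* (0.952) and *Hs3st6* (0.935), *Maob* like *Ppm1b* (0.860) and *Maoa* like *Cpped1* (0.952). Among the members, *Tph2* and *Slc18a1* had r 0.855 and *Ddc* and *Maoa* -0.41. The δ cell values of *Tph2* rest on 1 UMI in virgin and 2 in multipara, and those of *Slc18a1* on 4 in each library. *Tph1* had too few UMIs for this measure.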

How the data were processed

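The authors deposited raw UMI counts per gene and barcode for 1 virgin and 1 multipara library, made with Cell Ranger 3.1.0 on GRCm38 (mm10), with Seurat 3.0 also named in the submitters' processing notes. Counts are not normalized, and 3′ counts compare a gene between classes, not different genes. Barcodes were kept if they had over 200 but under 6000 genes, less than 60000 UMIs and mitochondrial UMIs below 10%, and Scrublet (scanpy 1.11.5) removed 1.39% and 1.30% of them. Hormone-low cells needed at least 4 marker UMIs from 2 markers and 3 times the next class. UMIs were summed per class and scaled to 1000000 (CPM). Intervals are 95% exact Poisson (levels), Clopper-Pearson (shares) and conditional binomial (ratios), in scipy 1.17.1 with numpy 2.4.6, pandas 2.3.3 and python 3.11.15, and cover counting error only. Genes with at least 20 UMIs in a class were compared, and "past" a ratio means beyond 1.5-fold. Shares were also taken after thinning endocrine cells to 5000 UMIs and other cells to 2000. Likeness used log2(CPM + 1) and members with at least 50 UMIs. The ratio code was tested on simulated data. Alternatives were 15 kinds of change to filter, gate, clustering, scaling or limits, with scale factors from edgeR 4.0.16 in R 4.3.3. The members, gene lists and genes named (members, the pathway list, pregnancy-linked genes and *Rerg*) were chosen with earlier results of these data known.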

Additional observations from a re-analysis of the deposited data

Results flagged for a closer look

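*Ddc* moved in opposite directions in the main endocrine classes, which is why it is listed here. The log2 ratio (multipara over virgin) was 0.079 in β cells and -0.24 in α cells, each in 1 library per group, and the difference between these ratios was not tested.

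Signal also appeared in cells that entered no class. Hormone-low, ungated cells with at least 2% of their UMIs from *Chga*, the granin of endocrine granules, numbered 14 in virgin and 3 in multipara, a cut chosen after the data were seen. They held *Ddc* at 449 CPM (344 to 577) in virgin against 509 CPM (285 to 839) in multipara, and *Slc18a1* at 133 CPM (78.6 to 210) and 136 CPM (37.0 to 347). β cells had *Ddc* at 168 and 177 CPM and *Slc18a1* at 3.98 and 4.97 CPM. With hormone transcripts out of the β cell total, these become 437 and 474 CPM for *Ddc*, inside the intervals of the *Chga*-rich cells, and 10.3 and 13.3 CPM for *Slc18a1*, below them. The *Slc18a1* UMIs were 18 in 7 virgin cells and 4 in 1 multipara cell. *Fev* was in 12 of the 14 virgin cells and 2 of the 3 multipara cells, and *Pyy* was at 26085 CPM in virgin and 204 CPM in multipara. *Tph1* and *Tph2* had no UMI there, which allows up to 27.2 CPM in virgin and 125 CPM in multipara (upper ends of the 95% intervals). The enterochromaffin marker *Tac1* had 2 UMIs in virgin and none in multipara.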

How the results depend on the processing

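The log2 ratio of *Tph1* in β cells ran from 4.00 to 4.46 over the 10 alternatives that gave one (after thinning, virgin had no UMI), that of *Tph2* from 0.62 to 1.12 and that of *Ddc* from 0.00103 to 0.15 in β cells and from -0.26 to -0.14 in α cells over 11 each. No member past 1.5-fold turned its direction, and of the pathway genes past it *Fev* did (0.21 with equal weights). The 2 members past 1.5-fold in β cells became 0 after thinning, 1 with at least 50 UMIs, and 3 with each cell weighted equally or at least 1 UMI in each library as the only minimum. From 0, the count became 1 in α cells with each cell weighted equally and after thinning, and 2 at that 1-UMI minimum. In δ cells it became 1 with the other hormones under 1/20, after thinning and at that minimum. In PP cells it became 1 with the other hormones under 1/20, and in endothelial cells 1 with equal weights and 2 at that minimum. The 6 pathway genes past 1.5-fold in β cells became 3 with the other hormones under 1/20, after thinning, with at least 50 UMIs and at a 2-fold limit, and 5 under TMM, median-of-ratios and hormone-free scaling and 4 with classes from clusters. Thinning and the 50-UMI minimum leave fewer genes to compare, and the 1-UMI minimum more. The causes of the other changes were not tested. Among single ratios of members, 11 moved beyond their counting interval and 164 did not. Cell gates use the same RNA counts as the levels. Depth limits *Tph1* outside β and α cells, and the receptors of the set in all classes. Differences between mice cannot be told apart from differences between libraries. No paired analysis was possible because each group is a single library.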
